A study of Mus musculus with 38 samples.

Results

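The genes of the synaptic vesicle and of transmitter release were followed across spiral ganglion and organ of Corti fractions of kainate-treated mouse cochlear explants. The 46 genes were listed by name, by their part in the vesicle cycle. Their measured values did not enter the rule, but earlier results of these data were known when the list was made. Of these, 44 had a probe on the array, out of 16593 genes with a probe in all, and Sv2c and Unc13a had none. Each gene was read by 1 probe, the brightest of its probes over all arrays.

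A presynaptic terminal stores transmitter in vesicles that are filled by transporters, tethered at an active zone and fused with the membrane by SNARE proteins when calcium enters. Synapsins hold vesicles in reserve, synaptotagmins and complexins tie fusion to calcium, and amphiphysin, dynamin and endophilin retrieve the membrane afterwards. In the cochlea both fractions use parts of this machinery: spiral ganglion neurons carry it towards their central terminals, whereas inner hair cells release glutamate at ribbon synapses that rely on otoferlin and the transporter VGLUT3 in place of several neuronal proteins.

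Explants came from postnatal C57BL/6 mice of 3 to 5 days, and all carried the same wild-type background. Kainate, a glutamate analogue that is toxic to afferent fibers, was applied at 0.4 mM for 2 h, and control explants (CTRL) received none. At 5, 24 or 72 h each explant was cut into a spiral ganglion fraction (SG) and an organ of Corti fraction (OC), whose RNA was hybridised to separate bead arrays. The SG control groups numbered 4, 2 and 3 arrays over the 3 times, and the SG kainate groups (KA) 4, 3 and 3. The OC control groups numbered 3, 4 and 3 arrays, and the OC kainate groups 4, 2 and 3. Whether a fraction held fewer neurons or less RNA per neuron cannot be told apart in such bulk RNA.

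All 38 arrays measured 25697 probes, of which 10043 to 12171 per array were above background at a detection p under 0.01. Values are normalized intensities on the log2 scale, so a difference of 1 is a doubling, and levels of different genes are not set against each other because probes differ in brightness. The fractions matched their labels for most markers. A list of 19 hair cell genes averaged 7.84 to 8.66 on SG arrays and 9.17 to 9.69 on OC arrays, and 13 of the 19 were detected on every OC array against 1 on every SG array. A list of 27 neuronal genes averaged 8.76 to 10.24 on SG arrays and 8.92 to 9.28 on OC arrays, and the fractions overlapped on that list at 72 h. Arrays carry the replicate numbers of their labels, values are listed in the order of those numbers, and the SG control arrays at 24 h are numbers 2 and 3. Control array 2 of SG at 24 h had the highest hair cell average of any SG array, 8.66.

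Of the 44 presynaptic genes, 12 were detected on all 38 arrays and 30 on at least 2. Syp, Syt1, Syt11, Vamp2, Stx1a, Nsf and Rab3a were among those seen on every array. The other 14 were above background on no array: Syn3, Synpr, Syt2, Syt3, Syt6, Syt7, Syt8, Snap25, Rab3c, Rims1, Bsn, Dnm1, Slc17a7 and Doc2b. For them a value gives only an upper bound. The single probe for Snap25, a SNARE of nearly every neuron, was among them at a mean of 7.28, so its level was not measured here.

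Promoter sequence is shown for the 3 genes that fell most during SG culture, Cplx1, Syp and Syn1, and for Syt1, the gene with the largest excess in OC. The sequences are from RefSeq, build GRCm38.p6, and run 5′ to 3′ on the gene's strand over the 250 bases before the annotated start. They lie at chrX:20920919-20921168 for Syn1 (minus strand), chrX:7638330-7638579 for Syp (plus strand), chr5:108550028-108550277 for Cplx1 (minus strand) and chr10:109010976-109011225 for Syt1 (minus strand). Capitals mark matches, on either strand, to the cAMP response element TGACGTCA, to TTCAGCACC, the left part of the RE1 element of neuronal genes, and to the GC box GGGCGG.
Syn1: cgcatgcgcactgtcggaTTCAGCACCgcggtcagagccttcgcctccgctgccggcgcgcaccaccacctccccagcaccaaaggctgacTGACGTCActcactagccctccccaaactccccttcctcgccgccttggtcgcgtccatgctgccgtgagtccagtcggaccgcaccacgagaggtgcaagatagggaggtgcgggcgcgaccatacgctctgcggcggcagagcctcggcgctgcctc
Syp: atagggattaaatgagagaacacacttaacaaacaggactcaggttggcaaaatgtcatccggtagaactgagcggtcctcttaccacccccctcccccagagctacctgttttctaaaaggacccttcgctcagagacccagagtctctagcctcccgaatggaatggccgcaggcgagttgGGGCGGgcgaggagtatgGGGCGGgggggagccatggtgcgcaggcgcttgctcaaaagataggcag
Cplx1: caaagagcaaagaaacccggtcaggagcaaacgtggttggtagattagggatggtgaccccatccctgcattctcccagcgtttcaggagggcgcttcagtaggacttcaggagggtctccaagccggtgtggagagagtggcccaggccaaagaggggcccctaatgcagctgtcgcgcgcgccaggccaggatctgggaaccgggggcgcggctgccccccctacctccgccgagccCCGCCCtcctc
Syt1: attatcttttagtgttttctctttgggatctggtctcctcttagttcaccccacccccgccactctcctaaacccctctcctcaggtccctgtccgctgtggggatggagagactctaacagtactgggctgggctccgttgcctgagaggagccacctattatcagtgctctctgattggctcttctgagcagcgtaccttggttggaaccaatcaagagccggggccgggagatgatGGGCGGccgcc
A window was found for 35 of the 44 genes. A gene was counted if any of its windows held the motif, whereas the share over all 32851 windows counts each window. The 2 shares are thus not directly comparable. The GC box was present in 24 of the 35 genes, or 68.6%, and in 32.7% of all windows. TGACGTCA was present in 2 of the 35, Syn1 and Sh3gl2, and in 1.55% of all windows. TTCAGCACC was present in Syn1 alone among the 35 and in 0.301% of all windows. These matches describe the letters in the window and were not tested for binding.

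The first question was which presynaptic genes separated the neuronal from the sensory fraction. In control explants 16 of the 44 genes differed between SG and OC at an adjusted p under 0.05, where 23.1% of all probes did. SG exceeded OC in 10 of them (11.1% of all probes) and OC exceeded SG in 6 (12% of all probes). The median difference over the 44 genes was 0.05, against -0.01 over all probes. These counts and shares include probes never above background. No share over detected probes alone is given, here or for the changes over time. Slc17a6, Sv2b, Syt4 and Cplx1 were higher in SG, and Syt1, Rab3b and Rims2 were higher in OC.

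**Figure D1:**
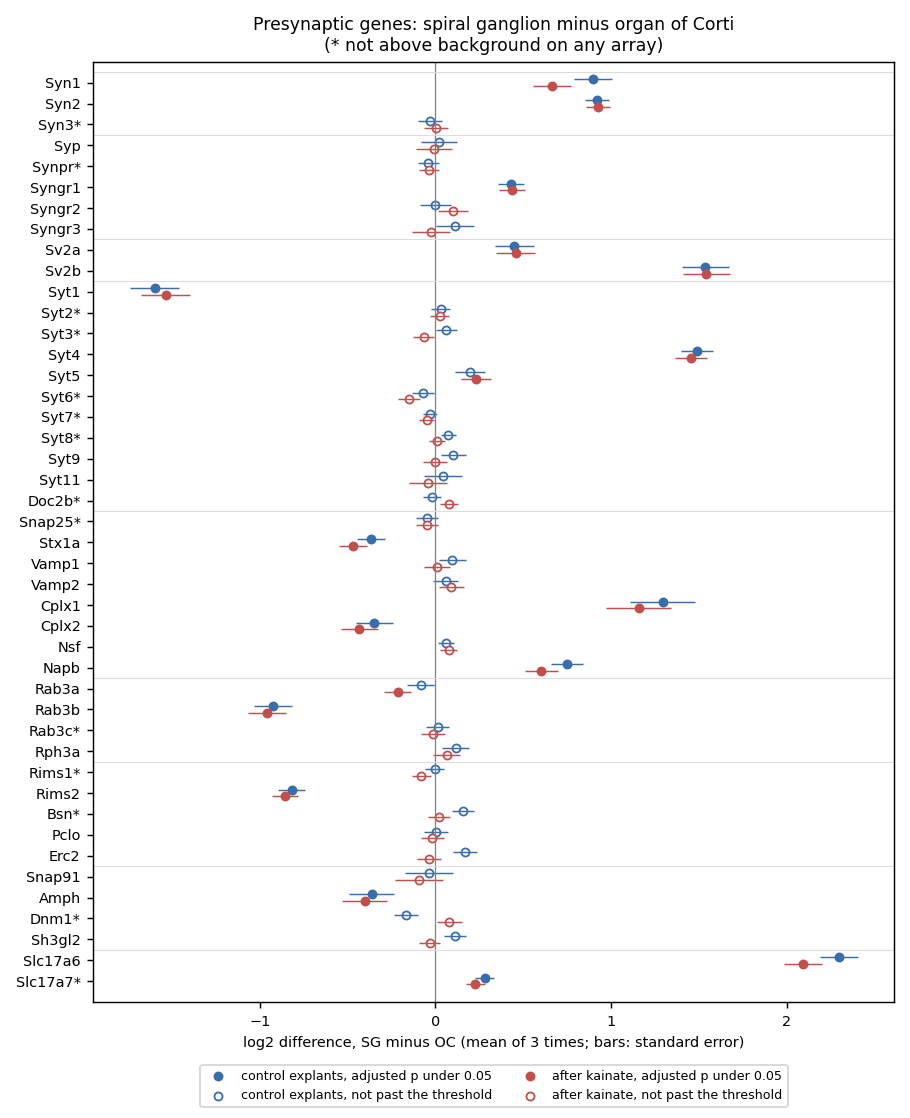
SG minus OC log2 difference of each presynaptic gene (horizontal axis), averaged over 5, 24 and 72 h, in control explants (blue) and after kainate (red). Bars are standard errors from limma, filled points passed an adjusted p of 0.05, values on the dim side of Slc17a6, Syn2, Rab3b and Rims2 are mostly bounds, and Slc17a6 at 2.30 and Syt1 at -1.60 mark both ends in control explants.

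Slc17a6 encodes VGLUT2, a vesicular glutamate transporter. Its intensity ranged from 9.13 to 11.26 over the 9 SG control arrays with a median of 10.25, and from 7.50 to 8.32 over the 10 OC control arrays with a median of 7.79. The ranges did not overlap, and it was above background on 9 SG control arrays and 1 OC control array. The measured difference was 2.30 ± 0.11 (SE) with an adjusted p of 7.49e-17. Because most OC values are bounds, the excess was at least 3.99-fold, counted with values below an array's lowest detected intensity raised to it. Slc17a7, which encodes VGLUT1, differed by 0.28 ± 0.05 with an adjusted p of 0.000164, but was above background on no array, so no fold is given.

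The vesicle glycoproteins of the SV2 family were both higher in SG when averaged over times. Sv2b ranged from 9.91 to 10.78 in SG control arrays (median 10.11) and from 8.23 to 9.29 in OC control arrays (median 8.68), without overlap. Its difference was 1.54 ± 0.13, a 2.90-fold excess. Sv2a, the more widely expressed form, ranged from 8.62 to 10.23 in SG (median 9.45) and from 8.46 to 9.32 in OC (median 8.73), with overlap, and differed by 0.45 ± 0.11 with an adjusted p of 0.00268. The second brightest probe of Sv2a gave 0.51 ± 0.12. The Sv2a excess lay at 5 h, where the lowest SG control array was 9.51 and the highest OC control array 8.63. At 24 and 72 h the Sv2a control arrays of the fractions overlapped.

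Both detected synapsins were higher in SG when averaged over times. Syn2 ranged from 8.12 to 9.29 in SG control arrays (median 8.64) and from 7.52 to 7.83 in OC control arrays (median 7.74), without overlap. It was above background on none of the 19 OC arrays and on 18 of the 19 SG arrays. Its excess, counted in the same way, was at least 1.44-fold, with an adjusted p of 2.46e-12. Syn1, the most studied synapsin, ranged from 8.12 to 10.57 in SG (median 8.94) and from 7.80 to 8.36 in OC (median 8.11). It was not higher in SG at 72 h, where SG control arrays were 8.12, 8.13 and 8.15, none above background. OC control arrays at 72 h ranged from 8.14 to 8.36, all above background. The Syn1 ranges overlapped, and the difference averaged over times was 0.90 ± 0.11 with an adjusted p of 5.13e-08, or 0.87 with values raised to the lowest detected intensity, since Syn1 was above background on 6 of 9 SG and 6 of 10 OC control arrays.

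Syt4, an atypical synaptotagmin of neuronal and endocrine vesicles, ranged from 9.20 to 10.59 in SG control arrays (median 9.75) and from 7.81 to 8.58 in OC control arrays (median 8.41). The ranges did not overlap, and the difference was 1.49 ± 0.09, or 2.81-fold, with an adjusted p of 3.17e-14. Cplx1 encodes complexin 1, a clamp and activator of the SNARE complex. It ranged from 9.57 to 12.64 in SG (median 10.66) and from 8.55 to 10.33 in OC (median 9.34), with overlap. Its difference was 1.29 ± 0.19, or 2.45-fold. Napb, a cofactor of the SNARE-disassembling ATPase Nsf, ranged from 9.43 to 10.58 in SG (median 9.85) and from 8.88 to 9.49 in OC (median 9.21) and differed by 0.75 ± 0.09. Nsf itself differed by 0.06 ± 0.05 with an adjusted p of 0.456. Syngr1, a synaptogyrin of the vesicle membrane, was also higher in SG, by 0.43 ± 0.07.

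Syt1 went the other way. This calcium sensor of fast release ranged from 8.87 to 10.19 in SG control arrays (median 9.47) and from 10.84 to 11.47 in OC control arrays (median 11.18), without overlap. The difference of -1.60 ± 0.14 put SG at 0.330 of the OC level, with an adjusted p of 1.09e-10. Rab3b, a small GTPase of secretory vesicles, ranged from 7.38 to 8.14 in SG (median 7.52) and from 8.17 to 8.99 in OC (median 8.53). It was above background on no SG array and on all 10 OC control arrays, an OC excess of at least 1.32-fold. Rims2, a Rab3-binding scaffold of the active zone, ranged from 7.35 to 8.17 in SG (median 7.81) and from 8.42 to 8.89 in OC (median 8.55). It was above background on 1 of 9 SG and all 10 OC control arrays, a measured difference of -0.82 ± 0.08 and an OC excess of at least 1.34-fold. The Rab3b and Rims2 ranges did not overlap in control arrays.

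Stx1a, Amph and Cplx2 were also higher in OC when averaged over times, with smaller differences and overlapping ranges. The plasma membrane SNARE Stx1a ranged from 9.56 to 10.13 in SG control arrays (median 9.93) and from 9.85 to 10.50 in OC control arrays (median 10.30), a difference of -0.37 ± 0.08. Amph, which encodes amphiphysin, ranged from 8.02 to 9.99 in SG (median 8.66) and from 8.50 to 9.67 in OC (median 9.17). Its difference averaged over times was -0.36 ± 0.13 with an adjusted p of 0.0379, but the direction turned with time. At 5 h Amph was higher in SG, at 9.19 or more against 8.91 or less. At 24 and 72 h it was higher in OC, again without overlap. Cplx2, which encodes complexin 2, ranged from 7.48 to 8.56 in SG (median 7.93) and from 8.11 to 8.57 in OC (median 8.25), a measured difference of -0.35 ± 0.11. Because Cplx2 was above background on no SG control array at 24 or 72 h, that difference was -0.078 with values raised to the lowest detected intensity. The Amph call was lost when any 1 of 11 control arrays was left out and that of Cplx2 without SG array 2 at 24 h.

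After kainate 18 of the 44 genes differed between the fractions, with 23.8% of all probes past the test. SG exceeded OC in 11 (11.7% of all probes) and OC exceeded SG in 7 (12.1%). Slc17a7, 1 of the 11, was above background on no array, so its direction was not measured. Sv2b differed by 1.54 ± 0.13, Syt4 by 1.45 ± 0.09 and Syt1 by -1.54 ± 0.14. Slc17a6, above background on 2 of 9 OC arrays, was at least 3.59-fold higher in SG, and Rab3b, above background on no SG array, was at least 1.42-fold higher in OC. Syt5, another calcium-binding synaptotagmin, and Rab3a, the main neuronal Rab3, passed in addition, at 0.23 and -0.22, but Syt5 was above background on 5 of 10 SG and 1 of 9 OC arrays and its difference was 0.071 with values raised to the lowest detected intensity. Same-numbered SG and OC arrays deviated together. With the replicate number as a block the counts were 17 in control explants and 19 after kainate, with Syt5 and Syt6 added in turn. The share of all probes called with that block is not given.

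Among 56 other genes of synapses and exocytosis, 13 passed in control explants, with SG the higher for 5 and OC for 8, a share of 23.2% that lies beside 23.1% of all probes. Cadps, a priming factor for dense-core vesicles, was higher in SG by 0.85 ± 0.09, and its paralog Cadps2 was higher in OC, at -1.29 ± 0.11. The liprin Ppfia3 and the adaptor Apba1 were also higher in OC, at -0.79 ± 0.10 and -0.72 ± 0.08. On the marker lists, SG was the higher for 17 of 27 neuronal genes and OC for 5, and OC was the higher for 16 of 19 hair cell genes and SG for 1. The part of cell composition in the differences of single presynaptic genes was not tested.

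The second question was how these genes moved while the explants were kept in culture. In SG control explants 20 of the 44 genes changed between 5 and 72 h, 17 of them falling and 3 rising, whereas 15.4% of all probes changed, 7.26% falling and 8.18% rising. The falls included synapsins, synaptophysin, complexins, the glutamate transporter Slc17a6, SV2A and proteins of Rab3 and of the active zone. The median change over the 44 genes was -0.10, against 0.01 over all probes. At 24 h 14 genes were already called lower than at 5 h and none higher, with 1.95% of all probes called and 1.31% lower. Slc17a7, 1 of the 14, was above background on no array, so its direction was not measured.

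**Figure D2:**
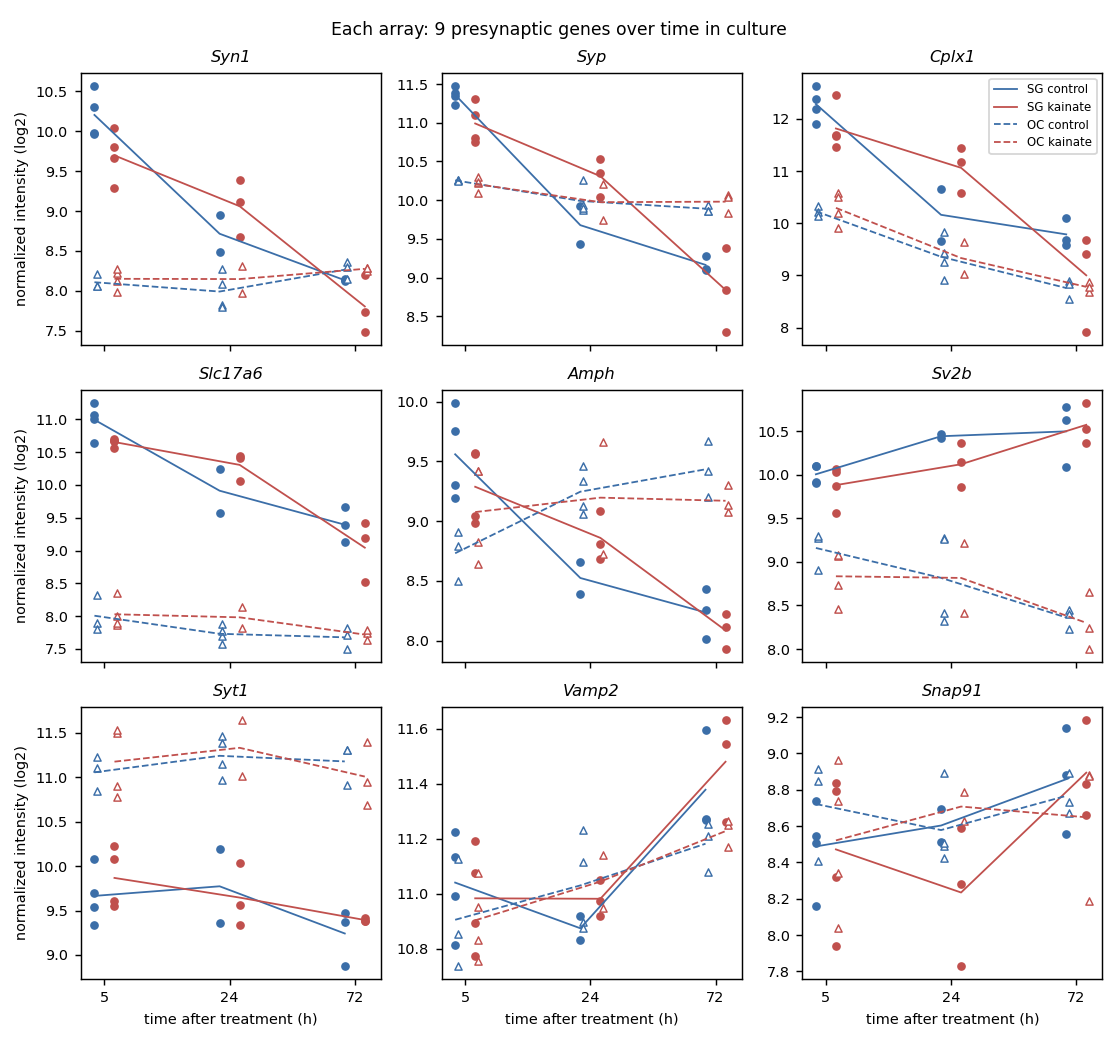
Normalized intensity (log2, vertical axis) of 9 presynaptic genes on every array at 5, 24 and 72 h, evenly spaced on the horizontal axis. Filled circles with solid lines are SG and open triangles with dashed lines are OC, in blue for control and red for kainate, and lines join group means. Cplx1, Syp and Syn1 fell in SG from means of 12.28, 11.36 and 10.20 at 5 h in control explants.

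Cplx1 had the largest fall. It was 12.38, 11.91, 12.20 and 12.64 on the 4 SG control arrays of the 5 h group, 9.66 and 10.66 on 24 h arrays and 9.68, 9.57 and 10.11 on 72 h arrays. Every later array lay below every 5 h array. The change at 72 h was -2.49 ± 0.30, to 0.177 of the starting level, with an adjusted p of 2.31e-07.

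Syp, which encodes synaptophysin, a major vesicle membrane protein, was 11.48, 11.35, 11.23 and 11.38 on 5 h arrays, 9.43 and 9.92 on 24 h arrays and 9.11, 9.28 and 9.10 on 72 h arrays. The groups at 5 and 72 h were far apart relative to their spread, and the change was -2.20 ± 0.17 with an adjusted p of 4.55e-11. Syn1 was 10.57, 9.96, 9.97 and 10.31 on 5 h arrays, 8.49 and 8.94 on 24 h arrays and 8.12, 8.13 and 8.15 on 72 h arrays. No Syn1 array was above background at 72 h, so the fall was at least 4.03-fold. The second Syn1 probe fell by 1.56 ± 0.13.

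Slc17a6 was 11.26, 11.01, 11.07 and 10.64 on 5 h arrays, 9.58 and 10.25 on 24 h arrays and 9.66, 9.13 and 9.39 on 72 h arrays. The arrays at 5 and 72 h did not overlap, and the change was -1.60 ± 0.18. Amph was 9.75, 9.30, 9.19 and 9.99 on 5 h arrays, 8.66 and 8.39 on 24 h arrays and 8.44, 8.02 and 8.26 on 72 h arrays, again without overlap. The Amph change was -1.32 ± 0.21 on this probe, which was detected on 35 arrays, and its 2 other probes, detected on none, gave -0.07 and -0.01.

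Rph3a encodes rabphilin, a Rab3 effector on vesicles. It was 8.71, 8.35, 8.64 and 8.74 on 5 h arrays, 7.57 and 7.70 on 24 h arrays and 7.38, 7.79 and 7.38 on 72 h arrays. It was above background on all 4 arrays at 5 h and on none later, a fall of at least 1.33-fold by 72 h. Syngr3, a neuronal synaptogyrin, was 9.42, 9.24, 9.45 and 9.64 on 5 h arrays, 8.43 and 8.97 on 24 h arrays and 8.40, 8.40 and 8.51 on 72 h arrays, a change of -1.0 ± 0.18. Syt4 was 10.59, 10.45, 10.18 and 10.35 on 5 h arrays, 9.49 and 9.38 on 24 h arrays and 9.66, 9.20 and 9.75 on 72 h arrays, a change of -0.85 ± 0.15. Neither gene's arrays at 5 h overlapped those at 72 h.

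The remaining 9 falls by 72 h were between 0.40 and 0.84 in size on the log2 scale. They were, from the largest, Napb at -0.84, Rab3a at -0.77, Sv2a at -0.72, Syn2 at -0.68, Cplx2 at -0.55, Rims2 at -0.51, the active zone protein Erc2 at -0.50, Syt5 at -0.47 and Slc17a7 at -0.40. Slc17a7 was never above background, and Rims2 was above it on no SG control array at 5 or 72 h, so the direction of these 2 was not measured. Cplx2 and Syt5 were above background on no array at 72 h, and the fall of Syt5 was at least 1.15-fold. Cplx2 was above background on only 3 of 4 arrays at 5 h. Its change was -0.126 with values raised to the lowest detected intensity, which is not a bound.

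In SG control explants 3 genes rose. Vamp2, the vesicle SNARE, was 10.81, 11.23, 10.99 and 11.13 on 5 h arrays, 10.83 and 10.92 on 24 h arrays and 11.60, 11.27 and 11.27 on 72 h arrays. All arrays at 72 h were above those at 5 h, and the change was 0.34 ± 0.12 with an adjusted p of 0.0470. Syngr2, a synaptogyrin found widely outside neurons, was 8.37, 8.53, 8.16 and 8.06 on 5 h arrays, 8.35 and 8.50 on 24 h arrays and 8.76, 8.65 and 8.90 on 72 h arrays, a rise of 0.49 ± 0.14. Pclo, which encodes the active zone scaffold piccolo, was 7.89, 7.78, 7.87 and 7.59 on 5 h arrays, 7.78 and 7.93 on 24 h arrays and 7.96, 8.04 and 8.31 on 72 h arrays, a rise of 0.32 ± 0.11. Pclo was above background on only 2 of the 38 arrays, and its second probe gave -0.020. These calls were the least stable: Vamp2 was lost without 5 h array 1 or 3 or 72 h array 2, Syngr2 without array 4 of either time, and Pclo without 5 h array 2 or 4 or 72 h array 3 or 4.

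The neuronal marker list moved with these falls. Its average in SG control explants was 10.10 at 5 h, 9.22 at 24 h and 9.04 at 72 h, and 20 of its 27 genes fell by 72 h and 1 rose. The list's own difference between 72 and 5 h was -1.06, and its part in the falls of the presynaptic genes was not tested. Among the other synapse and exocytosis genes, 8 of 56 fell and 3 rose, and the falls included Cadps at -2.00 ± 0.14, the SV2-related vesicle protein Svop at -1.76 ± 0.18, the synuclein Sncg at -1.44 ± 0.23 and Rims3 at -1.06 ± 0.17. At 24 h, 2 SG control arrays were available, and array 2 was the one with high hair cell markers. Without array 2 the changes of Cplx1, Syp and Syn1 from 5 to 24 h were smaller, at -1.62, -1.44 and -1.26. Only 1 control array then remained at 24 h, with its spread taken from the other groups. A count of calls without array 2 is therefore not read as a result on these genes.

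In kainate-treated SG, 16 genes changed between 5 and 72 h, 14 falling and 2 rising, with 14.6% of all probes called, 7.38% falling and 7.25% rising. Cplx1 changed by -2.81 ± 0.30, Syp by -2.15 ± 0.17 and Slc17a6 by -1.61 ± 0.18. Syn1, above background on 1 of the 3 arrays at 72 h, fell at least 2.67-fold. The direction was not measured for Slc17a7, 1 of the 14, which was never above background. Sv2b rose by 0.69 ± 0.22 and Vamp2 by 0.50 ± 0.12. At 24 h only Syt4, Syn2 and Rph3a were lower than at 5 h in kainate-treated SG, the first 2 at -0.74 and -0.66 and Rph3a by at least 1.34-fold, where 0.514% of all probes were called. On kainate array 3 of SG at 72 h Cplx1 was 7.91, Syp 8.29 and Syn1 7.48, the lowest values of these genes on any SG array.

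In OC control explants no presynaptic gene was called at 24 h, where 0.0623% of all probes were called. Of the 44 genes 5 had an unadjusted limma p under 0.05, a threshold at which the share of all probes is not given. At 72 h 5 genes were called, 3 lower and 2 higher, with 3.7% of all probes called. Cplx1 changed by -1.47 ± 0.32 and Sv2b by -0.80 ± 0.23. Rph3a was above background on 2 of 3 arrays at 5 h and on none at 72 h. Its change was -0.067 with values raised to the lowest detected intensity, which is not a bound. Sh3gl2, which encodes the endocytic protein endophilin A1, rose by 0.58 ± 0.11 and Syngr1 by 0.47 ± 0.13. The count was 3 without 5 h array 1 or 2 or any 1 of the 72 h arrays.

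Cplx1 in OC control explants was 10.14, 10.21 and 10.33 on 5 h arrays, 8.91, 9.44, 9.25 and 9.84 on 24 h arrays and 8.83, 8.89 and 8.55 on 72 h arrays. The arrays at 5 and 72 h did not overlap. Syp in the same explants was 10.25, 10.26 and 10.26 on 5 h arrays and 9.86, 9.94 and 9.86 on 72 h arrays, a change of -0.37 ± 0.18 with an adjusted p of 0.347. Syn1 was 8.06, 8.06 and 8.21 on 5 h arrays and 8.29, 8.36 and 8.14 on 72 h arrays, a change of 0.16 ± 0.18. After kainate no gene was called in OC at 24 h, with 0% of all probes called. Of the 44 genes 3 had an unadjusted limma p under 0.05, again without a share of all probes at that threshold. At 72 h 6 genes were called, 4 lower and 2 higher, with 4.69% of all probes called: Cplx1 at -1.51 and Syt4 at -0.60 were lower and Sh3gl2 at 0.43 was higher. The other calls were of Rph3a, Syt5 and Syt8, which were above background on no array at 72 h, so no fold is given. This count was 3 without any 1 of the 72 h arrays.

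**Figure D3:**
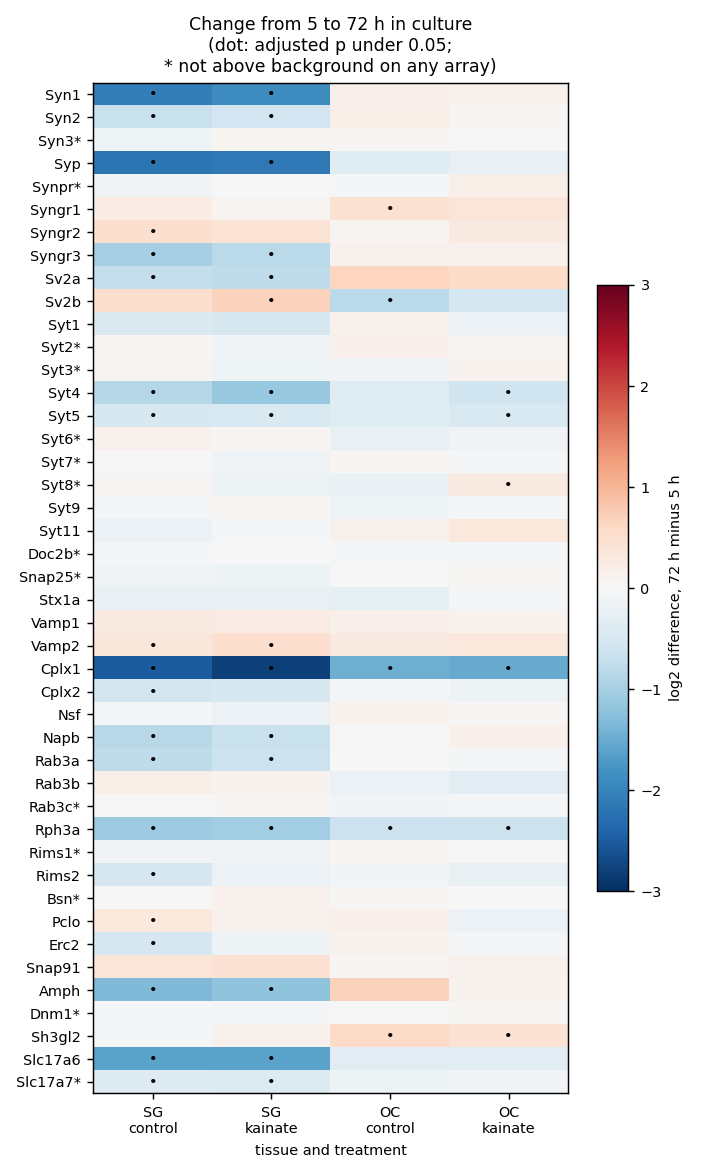
Change in intensity from 5 to 72 h (log2 difference, colour) of the 44 presynaptic genes in SG and OC, each in control explants and after kainate. Dots mark an adjusted p under 0.05, with 20 dots in SG control, 16 in SG kainate, 5 in OC control and 6 in OC kainate.

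The change over time differed between the fractions for 12 of the 44 genes when the difference itself was tested in control explants, with 4.18% of all probes called. Of the 12, 11 moved lower in SG relative to OC. Amph differed by -2.02 ± 0.31, Syp by -1.83 ± 0.24 and Sv2a by -1.36 ± 0.27. Syn1, at -2.23 ± 0.25 as measured, was above background on no SG array at 72 h, and the difference was -2.16 with values raised to the lowest detected intensity. Slc17a6, at -1.27 ± 0.26, was at -1.56 in that way, and Slc17a6 and Syn2 were above background on no OC array at 72 h. For Amph, OC control arrays were 8.91, 8.79 and 8.50 on 5 h arrays and 9.42, 9.21 and 9.67 on 72 h arrays, above the SG control arrays at 72 h. Cplx1, which fell in both fractions, did not pass, at -1.03 ± 0.44 with an adjusted p of 0.240. Napb and Erc2 lost their calls without any 1 of 6 and of 4 arrays, and Slc17a6 and Napb with neqc background correction. The neuronal marker list differed by -0.85 on average in this comparison, with 13 of its 27 genes called, all lower, and its part in these differences was not tested.

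Sv2b was the 1 gene that moved higher in SG relative to OC, by 1.29 ± 0.32 with an adjusted p of 0.0134. In SG control explants it was 10.11, 10.10, 9.91 and 9.91 on 5 h arrays and 10.63, 10.78 and 10.08 on 72 h arrays, with overlap. In OC control explants it was 9.29, 9.28 and 8.91 on 5 h arrays and 8.41, 8.45 and 8.23 on 72 h arrays, without overlap. Its family member Sv2a was 9.87, 9.51, 9.92 and 10.23 in SG control explants on 5 h arrays and 9.45, 8.91 and 9.14 on 72 h arrays. In OC control explants Sv2a was 8.46, 8.63 and 8.53 on 5 h arrays and 9.12, 9.32 and 9.10 on 72 h arrays. The tested SG minus OC differences in change were thus of opposite sign, 1.29 for Sv2b and -1.36 for Sv2a.

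The third question was what kainate did to these genes. Each kainate group was set against the control group of its own time, at an unadjusted p under 0.005. No presynaptic gene passed an adjusted p of 0.05 in any of these comparisons, where 0.0272% of all probes did in SG at 24 h and 0% elsewhere. At 5 h in SG, 2 of the 44 genes were called, both lower, with 0.389% of all probes called. At an unadjusted p under 0.05 there were 7 of the 44. Shares of all probes at that looser threshold are not given for any kainate comparison. Counts at it are therefore not read against the shares called at 0.005. The median difference over the 44 genes was -0.06, with 30 below 0, against 0.00 over all probes.

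**Figure D4:**
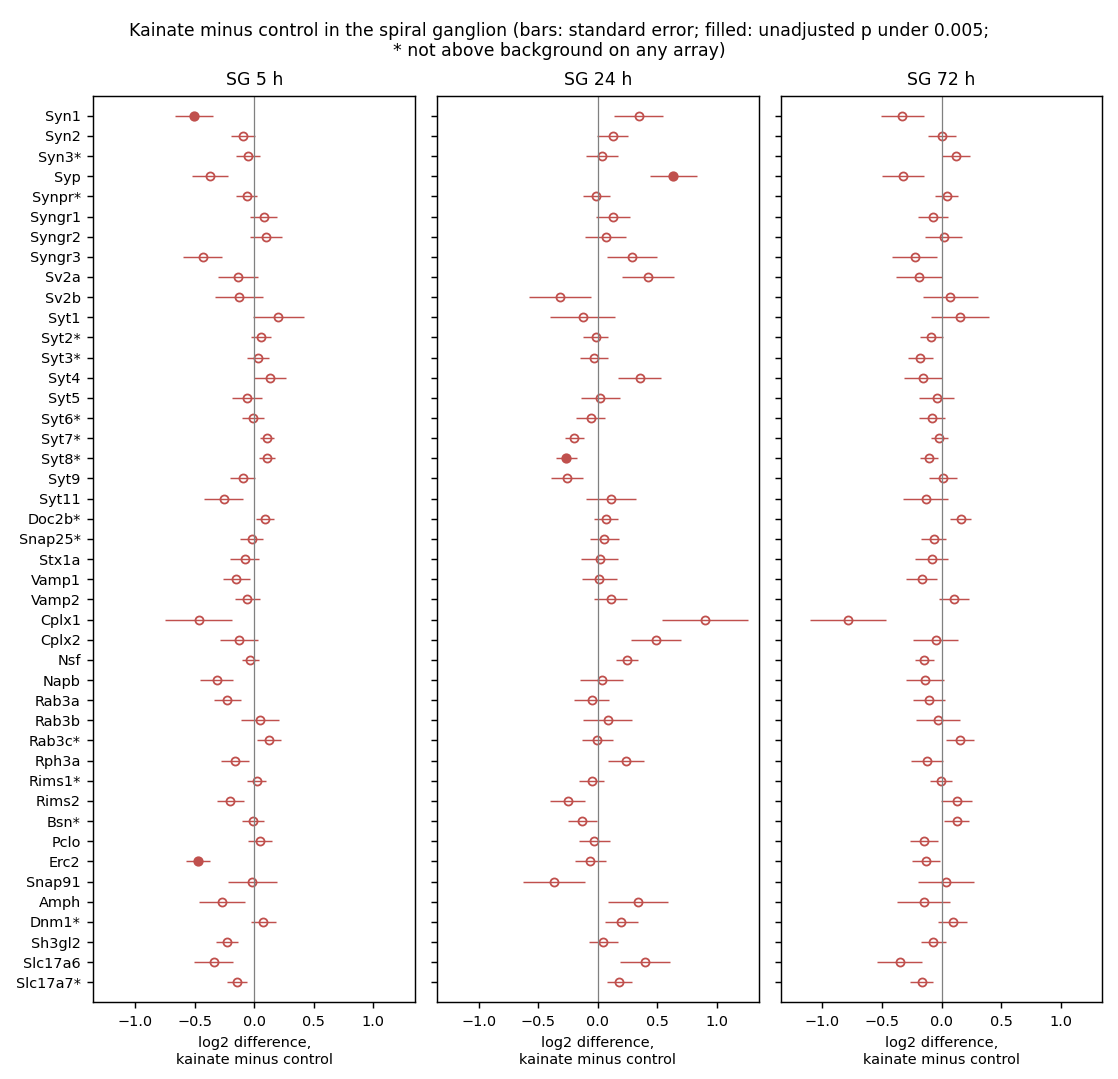
Kainate minus control log2 difference (horizontal axis) of each presynaptic gene in SG at 5, 24 and 72 h, with standard errors from limma. Filled points passed an unadjusted p of 0.005: Syn1 and Erc2 at 5 h, Syp and Syt8 at 24 h, and none at 72 h.

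Erc2 encodes an active zone protein of the CAST family. It was 9.64, 9.45, 9.38 and 9.75 on SG control arrays at 5 h and 9.12, 9.0, 8.98 and 9.22 on kainate arrays, without overlap. The difference was -0.47 ± 0.10, with an unadjusted p of 5.02e-05 and an adjusted p of 0.113. Syn1 was 10.57, 9.96, 9.97 and 10.31 on control arrays and 9.66, 9.28, 9.80 and 10.04 on kainate arrays, with overlap. The Syn1 difference was -0.51 ± 0.16, with an unadjusted p of 0.00333. A second Syn1 probe gave -0.39 ± 0.12.

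Same-numbered control and kainate arrays at 5 h deviated together. With the replicate number as a block, 5 genes were called in SG at 5 h: Syn1 at -0.51 ± 0.11, Erc2 at -0.47 ± 0.10, Syp at -0.37 ± 0.11, Syngr3 at -0.43 ± 0.13 and Sh3gl2 at -0.23 ± 0.07. The share of all probes called with that block is not given, so the count of 5 is not set against the share without it. Within the 2 array batches that held both treatments Syn1 differed by -0.91 and -0.28 and Erc2 by -0.52 and -0.55. With batch as a block in all 38 arrays Erc2 was called and Syn1 was not. The neuronal marker list differed by -0.26 on average, with 3 of its 27 genes called, all lower, and its part in the Syn1 and Erc2 differences was not tested. Cadps was the only one of the 56 other genes called, at -0.55 ± 0.13. Syn1 lost its call without control array 1 or 4 or kainate array 1 or 2, and without kainate array 4 the count was 4, with Syngr3 and Sh3gl2 added.

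At 24 h in SG, Syp was higher and Syt8 was lower after kainate, with 1.1% of all probes called. At an unadjusted p under 0.05 there were 6 of the 44 genes, with no share of all probes given. Syp was 9.43 and 9.92 on the 2 control arrays and 10.04, 10.36 and 10.53 on the kainate arrays, without overlap. The difference was 0.63 ± 0.20, or 1.55-fold, with an unadjusted p of 0.00316 and an adjusted p of 0.416. Without control array 2 it was 0.39 ± 0.24 and was not called, nor was it without kainate array 3 or 4. With the replicate number as a block neither Syp, at 0.49 ± 0.16, nor Syt8 was called. The SG groups share only number 3 at 24 h, and its control and kainate arrays did not deviate together (r of -0.011 over probes). The block thus says little about these calls.

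Syt8, an atypical synaptotagmin, was 7.64 and 7.83 on control arrays and 7.55, 7.29 and 7.58 on kainate arrays at 24 h in SG, a difference of -0.26 ± 0.08. These values did not overlap, but none was above background, so the difference lies among values that carry only a bound. On the other SG arrays Syt8 was also below background, at 7.51, 7.53, 7.72 and 7.59 on control and 7.64, 7.68, 7.71 and 7.76 on kainate arrays at 5 h and at 7.61, 7.65 and 7.65 against 7.48, 7.46 and 7.66 at 72 h. Syn1 was 8.49 and 8.94 on control arrays and 8.68, 9.11 and 9.39 on kainate arrays at 24 h, with overlap, a difference of 0.34 ± 0.21 with an unadjusted p of 0.104. Cplx1, at 9.66 and 10.66 against 10.57, 11.17 and 11.44, differed by 0.90 ± 0.36 with an unadjusted p of 0.0176. Macrophage and leukocyte markers were higher by 0.73 and neuronal markers by 0.25 on average in the same comparison, and their part in the Syp difference was not tested. No array batch held both treatments at this time. Of the 56 other genes, Rims3 and the secretory carrier Scamp5 were called, higher by 0.64 ± 0.21 and 0.42 ± 0.12.

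The kainate effect at 24 h was set directly against that at 5 h in SG, and 4 of the 44 genes passed an unadjusted p of 0.005, with 0.895% of all probes called. Syp differed by 1.00 ± 0.25 and Syn1 by 0.85 ± 0.26, both below control at 5 h and above control at 24 h. Syt8 and Syt7 differed by -0.37 ± 0.11 and -0.30 ± 0.10 and were never above background. Syt7, a high-affinity calcium sensor, was 7.30, 7.26, 7.29 and 7.19 on control arrays and 7.35, 7.37, 7.38 and 7.38 on kainate arrays at 5 h, and 7.39 and 7.57 against 7.30, 7.21 and 7.34 at 24 h. None passed an adjusted p of 0.05, as 0.00778% of all probes did, and the smallest was 0.216, for Syp. Neither Syn1 nor Syp passed the unadjusted threshold without SG control array 2 at 24 h, and Syn1 did not pass without any 1 of 5 other arrays either.

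At 72 h in SG no gene was called, with 0.179% of all probes called. Of the 44 genes 1, Cplx1, had an unadjusted p under 0.05, again with no share of all probes given. Cplx1 was 9.68, 9.57 and 10.11 on control arrays and 9.69, 7.91 and 9.41 on kainate arrays, with overlap, a difference of -0.78 ± 0.32. Syn1 was 8.12, 8.13 and 8.15 against 8.20, 7.48 and 7.73, and Syp was 9.11, 9.28 and 9.10 against 9.38, 8.29 and 8.84. In all 3 genes kainate array 3 was the lowest. The Syn1 and Syp differences of -0.33 ± 0.18 and -0.32 ± 0.18 had unadjusted p-values of 0.0849 and 0.0779. The SG groups share only numbers 3 and 4, and OC arrays of a number enter its block too. With the replicate number as a block 3 genes were called. They were Cplx1 at -1.13 ± 0.28, Syp at -0.60 ± 0.14 and Syn1 at -0.52 ± 0.15. The share of all probes called with that block is not given.

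In OC no presynaptic gene was called at 5 or 24 h, with 0.136% and 0.272% of all probes called. At an unadjusted p under 0.05 there were 2 of the 44 genes at each time. No share of all probes at that threshold is given for any time in OC. Syn1 differed by 0.04 ± 0.17 and 0.16 ± 0.20, and Syp by -0.05 ± 0.17 and -0.02 ± 0.19. Syn1 was 8.27, 8.12, 8.23 and 7.99 on kainate arrays at 5 h, 7.80, 7.82, 8.08 and 8.27 on control and 7.98 and 8.32 on kainate arrays at 24 h, and 8.29, 8.29 and 8.25 on kainate arrays at 72 h. Syt8 in OC was 7.55, 7.71 and 7.61 on control and 7.51, 7.50, 7.39 and 7.48 on kainate arrays at 5 h, and 7.60, 7.73, 7.70 and 7.70 against 7.48 and 7.46 at 24 h. At 72 h Syt8 was called, with 0.257% of all probes called and 2 of the 44 at an unadjusted p under 0.05. It was 7.39, 7.47 and 7.43 on control arrays and 7.75, 7.71 and 7.73 on kainate arrays, a difference of 0.30 ± 0.08 with an unadjusted p of 0.000428 and an adjusted p of 1.00. The groups did not overlap, all 6 values were below the detection threshold, and within the 2 batches that held both treatments the difference was 0.24 and 0.32.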

How the data were processed

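RNA of 38 explant fractions was hybridised to mouse bead arrays of 25697 probes. The authors deposited raw signal intensity without background subtraction, and their normalized values on the log2 scale, which quantile normalization of log2 raw intensity reproduced to within 4.99e-09. The deposited detection p-value sets each signal against control beads, and p under 0.01 was taken as above background. Neither scanner software nor normalization tool is named in the sources read.

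The 46 genes, their roles and the marker lists were chosen with earlier results of these data known. Groups came from sample names. Group means were estimated in limma 3.58.1 (R 4.3.3) over all probes, with 1 mean per group (12 groups, 26 residual and 5.36 prior degrees of freedom), and Benjamini-Hochberg adjusted p-values over all 25697 probes. An adjusted p under 0.05 was required for fractions and times, and an unadjusted p under 0.005, as in the study, for kainate. Standard errors are from these fits, and p-values measure the spread between explant fractions. The number of arrays limits the precision. The fit was tested on simulated data with independent arrays, which does not cover the shared deviation of same-numbered arrays. Each array is named by the replicate number of its label.

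Any of the 44 genes could be named. Values on every array, or ranges for groups above 5, are given for Syn1, Syt8, up to 8 genes a direction by size among those called between fractions and between 72 and 5 h in SG control explants, and all genes called for kainate; other genes shown by array, and Sv2a and Sv2b over time, were chosen after their values were seen. Of the 56 other genes up to 4 per comparison were named.

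The study separated both fractions from 1 explant, and all 16 same-numbered SG and OC pairs deviated together (r from 0.205 to 0.659 over probes). Of 15 same-numbered kainate and control pairs 12 had r above 0.1, including all 4 in SG and all 3 in OC at 5 h. Batches are the 5 colours of the study's clustering heat map. Alternatives were background correction with neqc (offset 16), probes detected on at least 2 arrays, the replicate number or batch as a block, arrays of 1 fraction, other probes of a gene, and each array left out. Promoters are from RefSeq.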

Additional observations from a re-analysis of the deposited data

Results flagged for a closer look

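In 12 genes the change from 5 to 72 h in control explants differed between SG and OC by the test of the difference (adjusted p under 0.05, log2 scale). The SG minus OC difference in change was -2.23 for Syn1, -2.02 for Amph, -1.83 for Syp, -1.36 for Sv2a, -1.27 for Slc17a6 and -1.12 for Syngr3. It was -0.87 for Syn2, -0.82 for Napb, -0.80 for Rab3a, -0.62 for Sh3gl2 and -0.60 for Erc2, and 1.29 for Sv2b. The Syn1 value rests on SG arrays below background at 72 h and was -2.16 with values raised to each array's lowest detected intensity, and that of Slc17a6 and Syn2 rests on OC arrays below background at 72 h. The Sh3gl2 difference lay mainly in OC, where the gene rose.

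In 4 genes the kainate effect in SG differed between 24 and 5 h at an unadjusted p under 0.005, by 1.00 for Syp, 0.85 for Syn1, -0.37 for Syt8 and -0.30 for Syt7. None had an adjusted p under 0.05, and Syt8 and Syt7 were above background on no array.

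Of 100 groups of 4 arrays examined gene by gene, 2 held an array far from the others, both for Sh3gl2, and chance gives about 1 in 20. Kainate array 4 of SG at 5 h was at 11.59 with the next at 11.30, and control array 2 of OC at 24 h was at 11.18 with the next at 11.32.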

How the results depend on the processing

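The calls between fractions, and those between 72 and 5 h in SG, stayed within 1.5 times their count under every alternative run. The number of genes called moved further in the following cases. Shares of all probes are given only for the fit without these alternatives, so these counts are not set against them. For kainate in SG at 5 h it was 2, and 1 with neqc, with batch as a block or with SG arrays alone, and 5 with the replicate block. For kainate in SG at 24 h it was 2, and 1 with neqc, with detected probes or with batch as a block, and 0 with the replicate block or with SG arrays alone. Only number 3 is shared by both SG groups at 24 h. The replicate block gave 3 for kainate in SG at 72 h (Syn1, Syp and Cplx1), where only numbers 3 and 4 are shared by both groups. For kainate in OC neqc gave 1 at 24 h, and detected probes gave 0 at 72 h, since Syt8 was then not tested. For the difference of the kainate effect the count was 2 with detected probes and 1 with SG arrays alone. Between 24 and 5 h in kainate-treated SG the count was 1 with SG arrays alone. Between 72 and 5 h in OC control explants it was 8 with batch as a block and 3 with second probes. Second probes reversed Pclo, which changed by -0.020 over time in SG control explants, and the Syt7 kainate difference, at 0.11. The cause of these moves was not tested.

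With 1 array left out at a time, counts ranged from 15 to 17 between fractions in control explants and from 15 to 18 after kainate. In SG they ranged from 6 (without control array 2 at 24 h) to 14 at 24 h and from 17 to 19 at 72 h in control, and from 1 (without kainate array 1 at 24 h) to 5 (without kainate array 2 at 5 h) at 24 h and from 15 to 17 at 72 h after kainate. In OC they were 0 at 24 h, and from 3 to 4 in control and 3 to 5 after kainate at 72 h. They ranged from 10 to 12 for the difference in change. For kainate in SG they ranged from 1 (without control array 4) to 4 (without kainate array 4) at 5 h, from 0 (without kainate array 3) to 4 (without control array 3) at 24 h, and from 0 to 2 (without kainate array 1) at 72 h. In OC they were 0 at 5 and 24 h and from 1 to 2 (without control array 4) at 72 h. For the difference of the kainate effect they ranged from 1 (without kainate array 3 at 24 h) to 7 (without kainate array 4 at 5 h or 1 at 24 h), with 2 without control array 2 at 24 h or kainate array 2 at 5 h. A group left with 1 array was assumed to vary as the others, and the share of all probes called is not given for these fits. Of single genes, 314 values kept direction and call with all arrays, 28 lost and 4 gained a call, and 2 reversed. With 1 array left out 745 kept both, 62 lost and 2 gained a call. Genes at background, 14 of 44, carry no measured level.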
